A study of Homo sapiens with 6 samples.

Results

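The nuclear genes of oxidative phosphorylation were examined in Panc-1 cells treated with TGFβ. Members were the probe sets that the array's annotation assigned to a single gene whose symbol starts with NDUFA, NDUFB, NDUFC, NDUFS, NDUFV, UQCR, COX4 to COX8 or ATP5, or is SDHA, SDHB, SDHC, SDHD, CYC1 or CYCS. There were 177 such probe sets for 92 genes, out of 54613 probe sets on the array (controls left out), of which 41091 named 1 gene. By complex, 33 genes encode subunits of complex I, 3 of complex II, 7 of complex III, 16 of complex IV and 17 of complex V. A further 8 are NDUFAF assembly factors of complex I, 5 are pseudogenes, antisense or divergent transcripts that carry a member's name, and cytochrome c (CYCS), the supercomplex factor COX7A2L and the ATP synthase inhibitor ATP5IF1 stand alone. SDHB and UQCRFS1 were not analysed here.

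Panc-1 is an established human cell line of pancreatic adenocarcinoma, and the study used TGFβ to induce the epithelial-mesenchymal transition (EMT) in it. The cells of all 6 samples were starved of serum for 24 h. Those of the 3 treated samples then received 5 ng/mL porcine TGFβ1 for 48 h, and those of the 3 untreated samples received none. The study's methods state the dose in nM, so the sources conflict on it, and the label's value is given. Total RNA of each was hybridised to 1 Affymetrix U133 Plus array, and values are log2 signals. A probe set was tested where its mean signal reached 100 (6.64 on the log2 scale) in either group, each gene was given the average of its tested probe sets, and a gene was called higher or lower at a limma adjusted p under 0.05.

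Oxidative phosphorylation takes place in the inner mitochondrial membrane. Complexes I and II pass electrons from NADH and succinate to coenzyme Q, complex III passes them to cytochrome c, and complex IV to oxygen. Complexes I, III and IV pump protons as they do so, and complex V, the ATP synthase, makes ATP from the return flow. All subunits of complex II and most of the others are encoded in the nucleus, made in the cytosol and imported, while a small set of core subunits is encoded by mitochondrial DNA. None of the 13 mitochondrially encoded subunits was analysed here. Their names were not matched to a gene identifier, so whether the array reads them was not examined.

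The subunit messages moved little, and more of them fell than rose. Of 92 member genes 81 were tested, and with TGFβ 10 were higher, 24 were lower and 47 did not pass the test. Across all 10115 genes tested 58.7% were called, 27.7% higher and 31% lower. Among the members the shares were 42.0%, 12.3% and 29.6%, so the share that fell was near that of all genes. Members and other genes were not tested against each other. The median log2 difference, TGFβ minus untreated, was -0.05 over the members and -0.01 over all genes. The median size of the difference was 0.11 for members and 0.21 for all genes. A change of at least 1.5-fold was called for 13.4% of all genes and for 1 member (1.23%), the assembly factor NDUFAF2. Among the 69 subunits of complexes I to V alone, 6 rose (8.70%) and 22 fell (31.9%), 0 of them by 1.5-fold. Their share that fell was thus also near that of all genes. The arrays do not tell fewer cells carrying a message from less of the message in each cell.

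**Figure D1:**
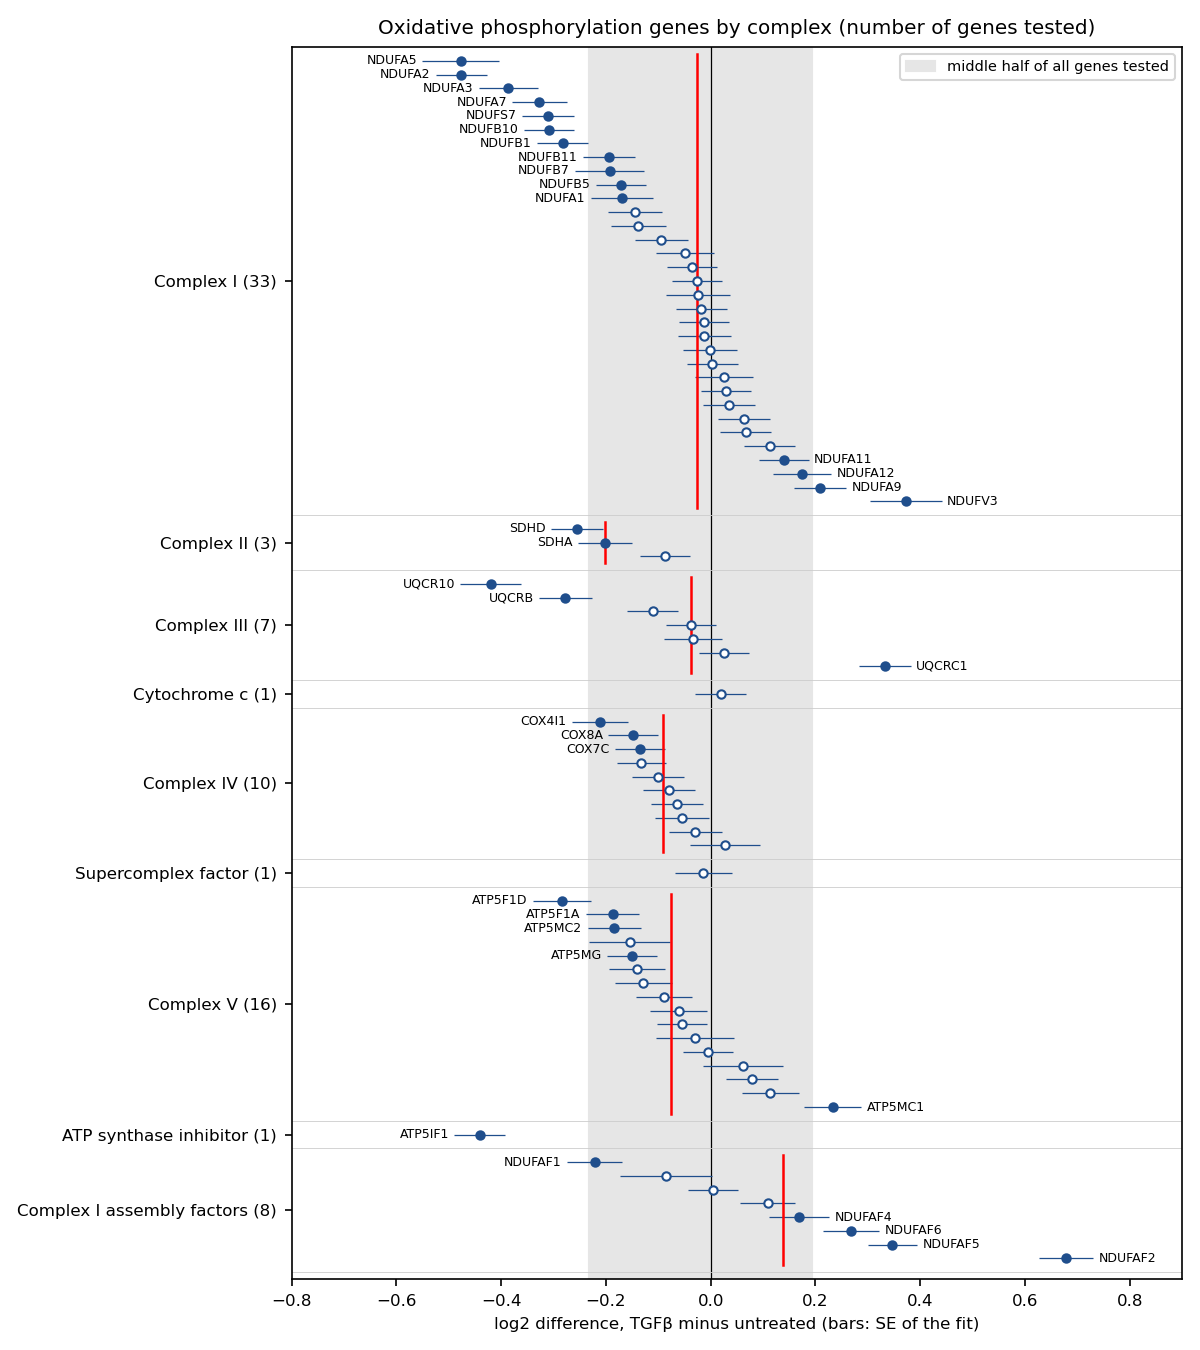
Log2 difference (TGFβ minus untreated) of each tested gene by complex, with bars for the standard error (SE) of the fit, filled points for genes past an adjusted p of 0.05 and a red line for the median of groups with over 2 genes. The grey band holds the middle 50% of all genes tested (-0.23 to 0.19), and NDUFAF2 at 0.68 lies farthest from 0. The tested divergent transcript NDUFV1-DT is not drawn.

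The members' probe sets were bright, although signals of different probe sets are not on 1 scale of abundance. Their median signal, where tested, was 11.66 (log2) against 8.64 for all tested probe sets, and 74 of the 125 (59.2%) were in the brightest 10%. Of the 177 probe sets 52 were below the limit in both groups, 121 passed in both and 4 passed in the untreated group alone. Those 4 had to be at least a little lower with TGFβ, and they belong to NDUFA7, NDUFAF7, SDHC and COX4I1. The 125 tested probe sets gave 13 higher and 32 lower calls, beside 26.6% higher and 28.5% lower over all 19101 probe sets. For 65.4% of member genes the 3 TGFβ arrays and the 3 untreated arrays did not overlap, against 68.2% of all genes, and the same held for 67.2% of member probe sets against 65.5% of all.

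Arrays of the same group correlated at 0.995 or more over all tested probe sets and at 0.999 or more over members. Between groups the correlations were 0.954 to 0.959 over all and 0.992 to 0.994 over members. The difference between the 3′ and 5′ control probe sets of ACTB, a sign of RNA quality and of labelling, was 0.52 to 0.57 on untreated arrays and 0.27 to 0.39 on TGFβ arrays, so it moved with the treatment. That of GAPDH stayed near 0, at -0.019 to -9.1e-05 on untreated and -0.043 to -0.0020 on TGFβ arrays. The part of RNA quality or labelling in the differences below was not tested. Of the keratins and vimentin expected in this carcinoma line 4 of 5 were above the signal limit, with a summed linear signal of 26745 to 27441 on untreated and 24069 to 24776 on TGFβ arrays. KRT19 was below it, and KRT7 passed on part of its probe sets, with a mean over all of them of 5.24 and 5.23. The sum hides opposite moves. As means over all probe sets, KRT8 went from 11.45 untreated to 9.27 with TGFβ and KRT18 from 13.03 to 11.78. VIM went from 8.99 to 9.78. Markers of leukocytes, endothelium, acinar cells, islets and striated muscle had 0 genes above the signal limit.

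Complex I has 33 tested subunits, of which 4 rose (12.1%) and 11 fell (33.3%), with a median difference of -0.03. Over all genes tested 27.7% rose and 31% fell, so the share of falls was near that of all genes. Of 5 tested nuclear core subunits, which carry the flavin and iron-sulphur centres, NDUFS7 fell (10.09, 10.17 and 10.16 on untreated and 9.74, 9.84 and 9.91 on TGFβ arrays, difference -0.31, SE 0.051, adjusted p = 0.0028). With no signal filter, which adds dim probe sets to a gene's average, it differed by -0.05 and did not pass (adjusted p = 0.59). NDUFV1 and NDUFV2, which receive the electrons of NADH, differed by -0.02 each, with 95% confidence intervals of -0.14 to 0.10 and -0.17 to 0.13. NDUFS1 differed by 0.02 and did not pass. NDUFS3 differed by -0.14 (adjusted p = 0.052), and its TGFβ arrays lay below all untreated ones. The 28 accessory subunits, which surround the core and steady it, held the remaining calls, 4 higher and 10 lower.

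The largest falls of complex I were those of NDUFA5, NDUFA2 and NDUFA3. NDUFA5, an accessory subunit of the arm that reaches into the matrix, measured 10.76, 10.79 and 10.96 on untreated and 10.43, 10.35 and 10.29 on TGFβ arrays. NDUFA2, a small accessory subunit with a thioredoxin-like fold, measured 11.74, 11.81 and 11.84 untreated and 11.26, 11.30 and 11.40 with TGFβ. NDUFA3, a subunit of the membrane arm, went from 11.78, 11.83 and 11.85 to 11.39, 11.36 and 11.56. In all 3 genes every TGFβ array was below every untreated array. The differences were -0.48 (SE 0.074, adjusted p = 0.0023), -0.48 (SE 0.048, adjusted p = 0.00044) and -0.39 (SE 0.057, adjusted p = 0.0018), or 1.39-fold, 1.39-fold and 1.31-fold lower. With no signal filter NDUFA5 differed by -0.29 (adjusted p = 0.0091) and NDUFA2 by -0.20 (adjusted p = 0.032). NDUFA7 (-0.33), NDUFB10 (-0.31) and NDUFB1 (-0.28) followed. One of the probe sets of NDUFA7 passed through the untreated group alone, and at a signal limit of 200, without it, the gene differed by -0.54. Smaller falls were called for NDUFB11, NDUFB7, NDUFB5 and NDUFA1 (0.17 to 0.19 on the log2 scale), and these calls were lost without replicate 2 (adjusted p = 0.12 to 0.27), without replicate 3 (adjusted p = 0.055 to 0.18) and after each array was centred on its median (adjusted p = 0.051 to 0.10). With no signal filter NDUFB7 differed by -0.01 (adjusted p = 0.91), and NDUFB1, NDUFB5 and NDUFA1 did not pass (adjusted p = 0.055 to 0.095).

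NDUFV3, NDUFA9 and NDUFA12 showed the largest rises. NDUFV3, a small accessory subunit bound to the NADH-oxidising tip, measured 9.86, 9.95 and 9.88 untreated and 10.33, 10.15 and 10.33 with TGFβ (0.37, SE 0.068, adjusted p = 0.0045). NDUFA9, which binds NADPH near the coenzyme Q site, went from 10.29, 10.38 and 10.34 to 10.55, 10.54 and 10.55 (0.21, SE 0.050, adjusted p = 0.012). NDUFA12, which takes the place of the assembly factor NDUFAF2 late in assembly, went from 12.31, 12.40 and 12.38 to 12.57, 12.47 and 12.57 (0.17, SE 0.056, adjusted p = 0.036). The groups did not overlap in any of the 3. NDUFA11 was called higher by 0.14 with overlapping groups, a call lost without replicate 2, without replicate 3 (adjusted p = 0.22 and 0.21) and with no signal filter (0.05, adjusted p = 0.59). The 8 subunits listed for the NADH-oxidising module thus held 2 that rose (NDUFV3, NDUFA12), 1 that fell (NDUFA2) and 5 that did not pass. Without replicate 2 of both groups the call of NDUFA9 was lost (0.23, adjusted p = 0.053) and without replicate 3 too (0.21, adjusted p = 0.066), and that of NDUFA12 was lost with any of the 3 left out (adjusted p = 0.061 to 0.15). With no signal filter NDUFV3 differed by 0.16 and did not pass (adjusted p = 0.17).

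The NDUFAF assembly factors build complex I and leave it. Of 8 tested, 4 were called higher, among them NDUFAF4, whose probe sets went opposite ways, and 1 was called lower, with a median difference of 0.14. These are 50% and 12.5%, beside 27.7% and 31% of all genes tested. Without replicate 1 the calls were 3 higher and 2 lower. NDUFAF2, a paralogue of NDUFA12 that holds its place in a late intermediate, measured 10.41, 10.44 and 10.50 on untreated and 11.16, 11.11 and 11.12 on TGFβ arrays. Each TGFβ array exceeded each untreated one, and the difference of 0.68 (SE 0.052, adjusted p = 0.00015), 1.60-fold, was the largest of all tested member genes. NDUFAF5, which hydroxylates an arginine of NDUFS7, went from 8.33, 8.39 and 8.41 to 8.69, 8.74 and 8.74 (0.35, SE 0.047, adjusted p = 0.0014). NDUFAF6 went from 9.41, 9.48 and 9.45 to 9.75, 9.67 and 9.73 (0.27, SE 0.053, adjusted p = 0.0062), again without overlap.

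NDUFAF1, part of the complex that assembles the membrane arm, was the factor that fell, from 9.77, 9.84 and 9.64 to 9.53, 9.56 and 9.50 (-0.22, SE 0.053, adjusted p = 0.012). Without replicate 2 its call was lost (-0.19, adjusted p = 0.099). NDUFAF4, which acts with NDUFAF3 early in assembly, was called higher as a gene (0.17, adjusted p = 0.043) but its 2 probe sets disagreed. The brighter measured 10.05, 10.15 and 10.22 untreated and 10.82, 10.63 and 10.75 with TGFβ (0.59, SE 0.073, adjusted p = 0.0011), the dimmer 8.16, 8.23 and 8.17 and then 7.92, 7.89 and 7.97 (-0.26, SE 0.058, adjusted p = 0.011). No direction can be given for the NDUFAF4 message as a whole, and its gene call was lost with any replicate left out (adjusted p = 0.069 to 0.15). NDUFAF3, NDUFAF7 and NDUFAF8 differed by 0.00, -0.09 and 0.11 and did not pass. Of the 3 tested probe sets of NDUFAF7, however, 1 was called higher. Its gene difference ran from -0.21 to 0.23 over the alternative settings given below.

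**Figure D2:**
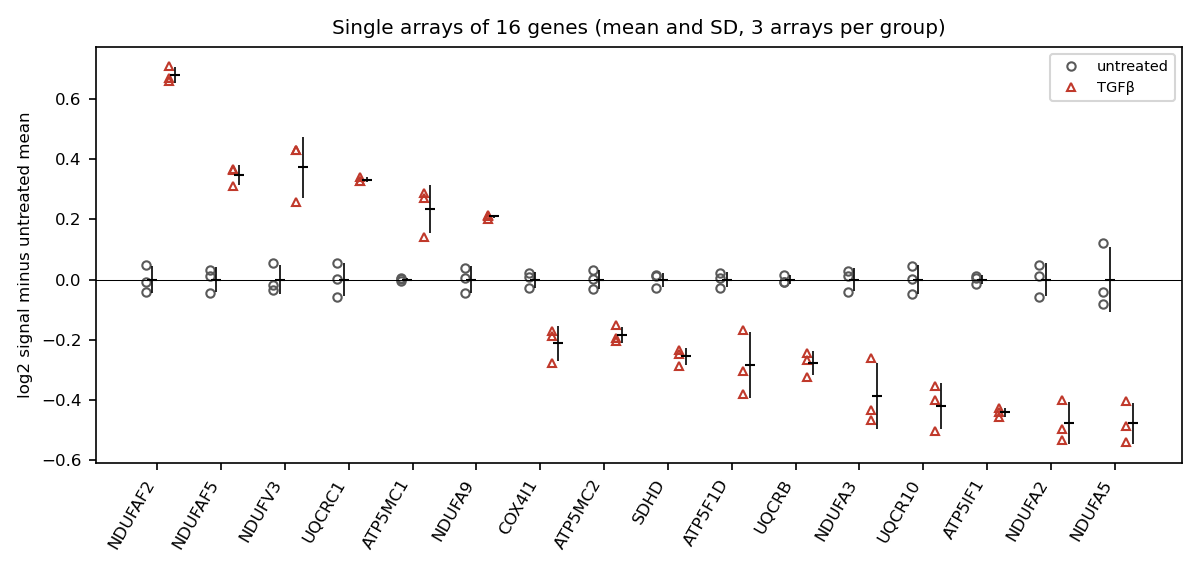
Log2 signal on each array of 16 genes, less the gene's untreated mean, for 3 untreated (circles) and 3 TGFβ arrays (triangles), with mean and SD beside the points. The TGFβ triangles lie above every circle for 6 genes, led by NDUFAF2, and below every circle for 10, ending with NDUFA2 and NDUFA5.

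Complex II, succinate dehydrogenase, also serves the tricarboxylic acid (TCA) cycle. SDHA, the flavoprotein that oxidises succinate, measured 10.45, 10.47 and 10.44 untreated and 10.23, 10.23 and 10.31 with TGFβ (-0.20, SE 0.051, adjusted p = 0.016). SDHD, which with SDHC anchors the enzyme and binds coenzyme Q, went from 11.77, 11.80 and 11.81 to 11.56, 11.51 and 11.54 (-0.26, SE 0.050, adjusted p = 0.0056). The groups were separate in both. Without replicate 2 neither passed (SDHA -0.18, adjusted p = 0.12, and SDHD -0.23, adjusted p = 0.052), nor did SDHD with no signal filter (-0.19, adjusted p = 0.058).

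SDHC had no settled direction. Its 6 tested probe sets fell into a bright set that was level or higher and a dim pair that was lower. The 4 bright ones, at untreated means of 10.00 to 11.29, differed by 0.27 (adjusted p = 0.0094), 0.15 (adjusted p = 0.064), 0.02 (adjusted p = 0.81) and 0.34 (adjusted p = 0.0057). The pair at low signal went from 7.41, 7.43 and 7.30 to 7.12, 7.04 and 7.02 (-0.32, adjusted p = 0.0044) and from 6.60, 6.84 and 6.81 to 5.73, 5.82 and 5.75 (-0.98, adjusted p = 9.9e-05), the latter under the signal limit with TGFβ. Averaged, the gene differed by -0.09 (adjusted p = 0.16), which became 0.20 (adjusted p = 0.012) at a signal limit of 200 and 0.27 (adjusted p = 0.0067) for the brightest probe set alone.

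In complex III the 7 tested genes gave 1 rise (14.3%) and 2 falls (28.6%), beside 27.7% and 31% of all genes tested. UQCRC1, the large core protein facing the matrix, went from 11.16, 11.22 and 11.27 to 11.54, 11.54 and 11.56 (0.33, SE 0.050, adjusted p = 0.0021), 1.26-fold higher. UQCR10, a small subunit beside cytochrome c1, went from 10.43, 10.47 and 10.37 to 9.92, 10.02 and 10.07 (-0.42, SE 0.058, adjusted p = 0.0015), 1.34-fold lower. UQCRB, a subunit at the coenzyme Q site, went from 11.33, 11.36 and 11.33 to 11.07, 11.02 and 11.10 (-0.28, SE 0.051, adjusted p = 0.0044). No groups overlapped, and all tested probe sets of UQCR10 (2) and UQCRB (3) were lower. The catalytic CYC1, cytochrome c1, differed by 0.03, with an interval of -0.09 to 0.14, and UQCRC2, the partner of UQCRC1, by -0.11 (adjusted p = 0.098).

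Cytochrome c, the soluble carrier between complexes III and IV, was not called as a gene (0.02, adjusted p = 0.76). Its bright probe set rose from 13.12, 13.13 and 13.16 to 13.32, 13.33 and 13.33 (0.19, SE 0.053, adjusted p = 0.024), while a dim one at 7.17 differed by -0.15 (adjusted p = 0.070).

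In complex IV 0 of 10 tested subunits were called higher and 3 lower (30%), with a median difference of -0.09. Over all genes tested these shares were 27.7% and 31%, so the falls were near the share of all genes. COX4I1, its largest nuclear subunit, where ATP regulates the enzyme, went from 11.12, 11.10 and 11.06 to 10.82, 10.92 and 10.91 (-0.21, SE 0.054, adjusted p = 0.016). That call rests on 1 dim probe set (6.85 to 6.44), which passed the filter through the untreated group alone and so had to be lower with TGFβ. The 2 bright ones differed by -0.11 each and did not pass, and at a signal limit of 200 the gene differed by -0.11 (adjusted p = 0.073). COX8A and COX7C, small single-pass subunits, differed by -0.15 (adjusted p = 0.036) and -0.13 (adjusted p = 0.049). Of the 3 tested probe sets of COX7C, 1 was called lower. All 3 calls were lost without replicate 2 (adjusted p = 0.065, 0.17 and 0.18), those of COX8A and COX7C without replicate 3 as well (adjusted p = 0.17 and 0.22), COX7C also without replicate 1 (adjusted p = 0.061). COX5B, COX6B1, COX6C, COX7A2, COX5A, COX6A1 and COX7B differed by -0.13 to 0.03. COX7A2L, which joins complexes III and IV, differed by -0.01. NDUFA4, once counted with complex I and listed on this array as COXFA4, lies outside the symbol rule and differed by -0.04 (adjusted p = 0.64).

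The isoforms of complex IV that belong to muscle, lung, testis or low oxygen stayed below the signal limit in both groups. Group means were 5.80 and 5.99 for COX4I2, 5.10 and 5.14 for COX6A2, 6.60 and 6.53 for COX6B2, 4.46 and 4.49 for COX7A1, 3.99 and 4.01 for COX7B2, and 3.77 and 3.86 for COX8C (untreated, then TGFβ). At this signal a change of isoform was not detectable. NDUFA4L2, the isoform raised in hypoxia and listed here as COXFA4L2, measured 5.42, 5.43 and 5.38 untreated and 6.26, 5.98 and 5.83 with TGFβ, below the limit too and so not tested.

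Of 16 tested genes of complex V, 1 rose (6.25%) and 4 fell (25%), beside 27.7% and 31% of all genes tested. In the F1 head, which makes ATP, 2 of 5 subunits fell: ATP5F1D, in the central stalk, from 9.34, 9.30 and 9.35 to 9.03, 8.95 and 9.17 (-0.28, SE 0.055, adjusted p = 0.0057), and the α subunit ATP5F1A from 13.54, 13.55 and 13.53 to 13.34, 13.43 and 13.30 (-0.19, SE 0.051, adjusted p = 0.020). Of the 2 tested probe sets of ATP5F1D, 1 was called lower and 1 did not pass. The catalytic β subunit ATP5F1B differed by -0.01, with an interval of -0.12 to 0.11. The 4 genes of the peripheral stalk, which holds the head still, gave 0 calls, with differences from -0.13 to 0.11. Of the small membrane subunits ATP5MG was called lower (-0.15, adjusted p = 0.035), from 1 of its 4 probe sets (10.51, 10.54 and 10.62 to 10.11, 9.87 and 10.02, difference -0.56). The other 3, at untreated means of 13.09 to 13.27, differed by -0.01 to -0.02, and its gene call was lost without replicate 2 (adjusted p = 0.18) and without replicate 3 (adjusted p = 0.16).

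The c-ring, the rotor that protons turn, is built from copies of 1 mature protein, which 3 genes encode with different import sequences. The 3 genes did not move together. ATP5MC1 went from 11.95, 11.95 and 11.94 to 12.09, 12.23 and 12.22 (0.23, SE 0.055, adjusted p = 0.012), every TGFβ array above every untreated one. ATP5MC2 went from 12.47, 12.51 and 12.54 to 12.35, 12.31 and 12.30 (-0.18, SE 0.051, adjusted p = 0.022), every TGFβ array below. ATP5MC3 did not pass (-0.14, adjusted p = 0.060). Its 2 bright probe sets differed by 0.06 and 0.04 and a dim one by -0.52 (7.47, 7.48 and 7.61 untreated and 7.10, 7.04 and 6.86 with TGFβ), so that its sign turned to 0.05 at a signal limit of 200. The calls of ATP5MC1 and ATP5MC2 were lost without replicate 2 (0.21, adjusted p = 0.086, and -0.18, adjusted p = 0.12) and without replicate 3 (0.21, adjusted p = 0.072, and -0.16, adjusted p = 0.15), as was that of ATP5F1A (-0.22, adjusted p = 0.062, and -0.16, adjusted p = 0.14). With no signal filter ATP5MC2 differed by -0.03 (adjusted p = 0.78) and ATP5F1A by -0.12 (adjusted p = 0.25).

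ATP5IF1, the small protein that stops the synthase from running backwards and spending ATP, fell from 9.53, 9.54 and 9.51 to 9.08, 9.07 and 9.10 (-0.44, SE 0.048, adjusted p = 0.00058), 1.36-fold lower. Its 3 probe sets all fell, by 0.29, 0.38 and 0.65 on the log2 scale, and the groups were far apart beside the spread of their arrays.

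Probe sets of 1 gene did not always speak together. Among the 28 member genes with at least 2 tested probe sets, 14 had calls in 1 direction, 12 had no call, and SDHC and NDUFAF4 had calls both ways. What transcript or region each probe set reads was not examined here.

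**Figure D3:**
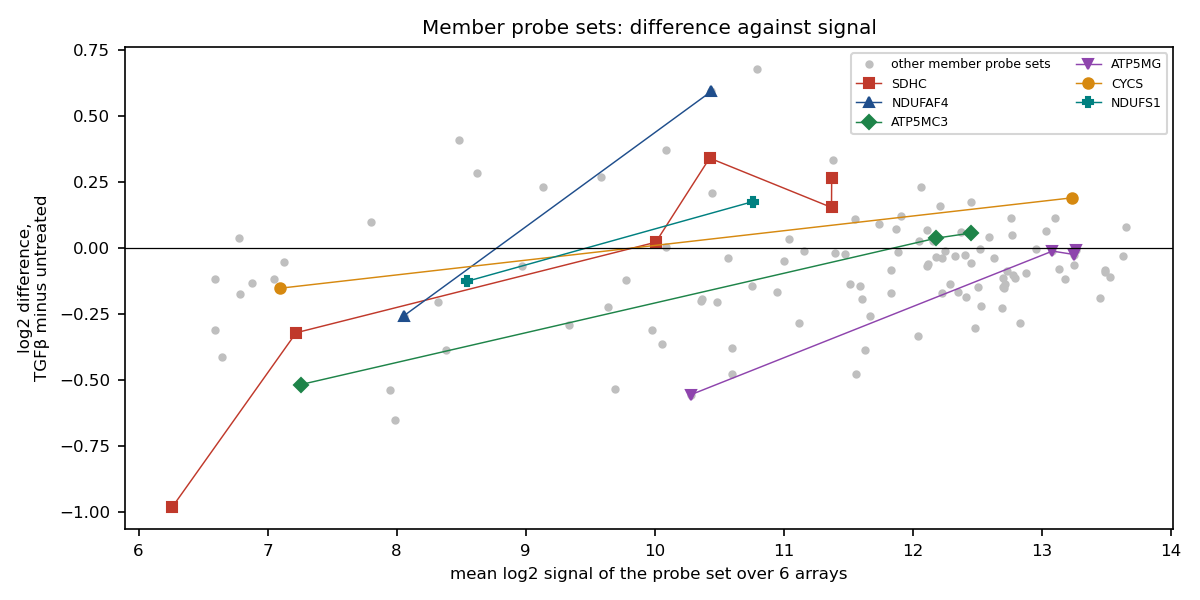
Log2 difference (TGFβ minus untreated) of each tested member probe set against its mean log2 signal over 6 arrays, with the probe sets of 6 genes joined by lines. SDHC runs from -0.98 at its dimmest probe set to 0.27 and 0.15 at its brightest, and NDUFAF4 from -0.26 to 0.59.

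Some genes outside the symbol rule build or serve the same complexes. Of 39 other assembly factors tested 10 rose and 11 fell, near the shares of all genes tested (27.7% higher and 31% lower). By at least 1.5-fold 3 of them changed. The lists that follow stand beside the same shares of all genes and were not tested against them. BCS1L, which inserts the Rieske protein into complex III, rose from 9.25, 9.25 and 9.28 to 9.84, 9.97 and 9.88 (0.63, SE 0.053), and COX10, which farnesylates the haem of complex IV, rose by 0.44. ATPAF1, a chaperone of the ATP synthase β subunit, fell from 9.08, 9.09 and 9.06 to 8.31, 8.15 and 8.20 (-0.86, SE 0.055), 1.81-fold lower, and COA5, a complex IV assembly factor, fell by 0.78 on the log2 scale. In each of the 4 the groups were separate. ATP5F1B, the subunit ATPAF1 attends, differed by -0.01.

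Coenzyme Q synthesis held 1 rise and 6 falls among 13 genes. COQ8A, a kinase-like protein of the synthesis complex, went from 8.19, 8.07 and 8.08 to 7.16, 6.87 and 7.11 (-1.07, SE 0.063), 2.09-fold lower, and COQ10A, which chaperones coenzyme Q, fell by 0.53 on the log2 scale. PDSS1, which makes the isoprenoid tail, rose by 0.61. The TCA cycle gave 1 rise (OGDH, of the 2-oxoglutarate dehydrogenase, 0.20) and 3 falls among 12 genes, SUCLG2 (-0.36) and DLD (-0.32) leading.

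Regulators of mitochondrial biogenesis gave 8 rises and 2 falls among 15, with a median of 0.16. Over all genes tested 27.7% were higher and 31% lower. PPRC1, a coactivator related to PGC-1, rose by 0.56 and GABPB1, the activating partner of GABPA, by 0.47. GABPB2 fell by 0.27 and NRF1, a transcription factor of respiratory genes, by 0.15 on the log2 scale. The coactivators PPARGC1A and PPARGC1B were below the signal limit. Protein import gave 12 rises and 1 fall among 22, with a median of 0.18. PAM16, of the import motor, rose by 0.70, TOMM40, the pore of the outer membrane, by 0.59, and the receptor TOMM20 fell by 0.28. Mitochondrial ribosomal proteins, which make the subunits encoded in the organelle, gave 37 rises and 10 falls among 76, with a median of 0.14.

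Other large assemblies are set beside the 69 subunits (6 higher, 22 lower, median -0.06) and all genes tested (27.7% higher, 31% lower, median -0.01). The cytosolic ribosomal proteins gave 3 higher and 11 lower of 55, with a median of -0.06, and the proteasome 16 higher and 5 lower of 35, with a median of 0.11. The median size of the difference was 0.11 for the subunits, 0.08 for cytosolic and 0.17 for mitochondrial ribosomal proteins, and 0.18 for the proteasome (log2). The lists were not tested against each other.

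**Figure D4:**
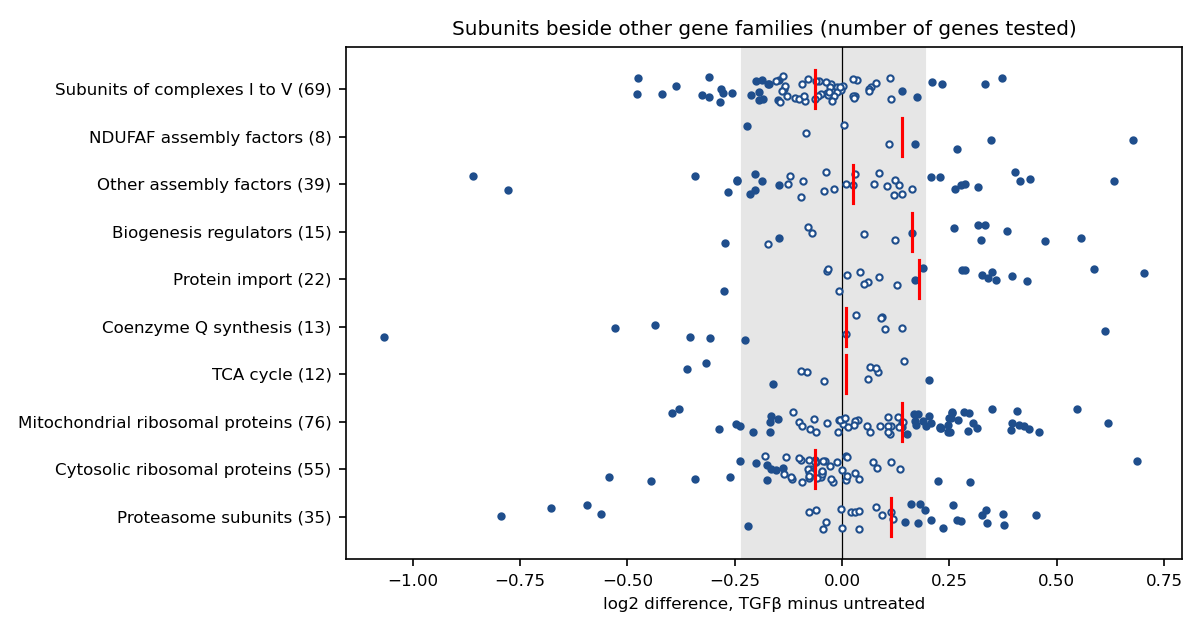
Log2 difference (TGFβ minus untreated) of each tested gene in 10 lists, with filled points for genes past an adjusted p of 0.05, red lines for medians and the middle 50% of all genes in grey; vertical scatter has no meaning. The subunits' median lies at -0.06, and those of protein import and of the mitochondrial ribosomal proteins at 0.18 and 0.14.

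Promoter windows of RefSeq (GRCh38.p14), from 250 bases before to 50 after the start of transcription, were at hand for 71 of the 81 tested members and 8450 of the genes tested. They were searched on both strands for letters bound by known regulators of respiratory genes: NRF1 (GCGCA, any base, GCGC), GABP and other ETS factors (CCGGAAG), YY1 (AAGATGGC), ERRA (TCAAGGTCA), Sp1 (GGGCGG) and, for SMAD proteins, a GC element (GGCGCC). The NRF1 letters were in 16 member windows (22.5%) against 13.2% of all, GABP/ETS in 26.8% against 20.9%, YY1 in 14.1% against 6.01%. Those of ERRA were in only 1 member window, that of SDHD (1.41%), against 14 of all (0.166%). Sp1 (57.7% against 72.8%) and the SMAD element (19.7% against 32.6%) were in fewer. Of the members called higher, 5 of 9 windows held the NRF1 letters (UQCRC1, NDUFA9, NDUFA12, NDUFA11 and NDUFAF5), and of those called lower 4 of 21 (SDHA, SDHD, NDUFA3 and UQCR10). The calls of NDUFA9, NDUFA12, NDUFA11, SDHA and SDHD were each lost with some replicate left out. Windows with these letters were not counted among all genes called higher or lower, so the split was not set against a background. The NRF1, Sp1 and SMAD letters can overlap one another in a window. A match of letters is a description and not a binding site.

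**Figure D5:**
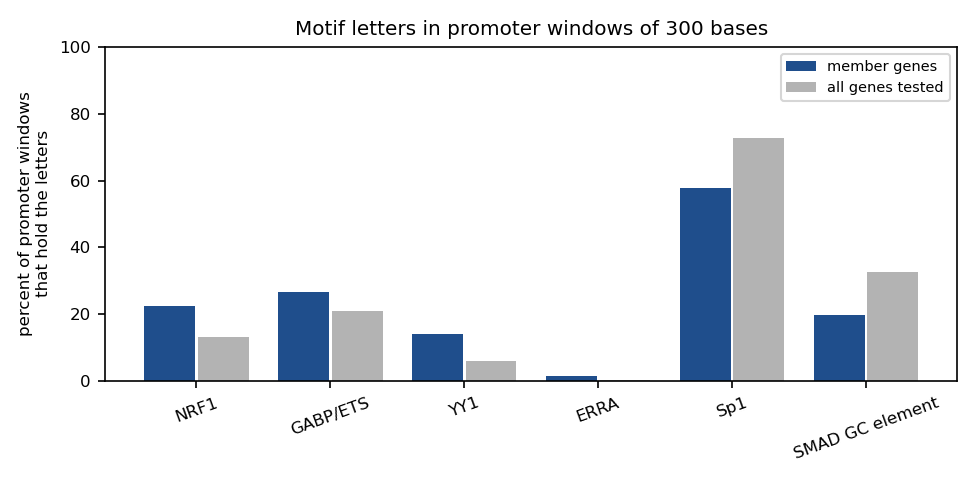
Percent of promoter windows of 300 bases that hold the letters of each motif on either strand, for 71 tested member genes and 8450 tested genes. Bars of members are taller for NRF1, GABP/ETS, YY1 and ERRA and shorter for Sp1 and the SMAD GC element. The ERRA bar of members stands for 1 window.

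The stretches just before 3 start sites are shown because SDHA, which fell, repeats the NRF1 letters while UQCRC1 and NDUFA9, which rose, hold them once. Each is written 5′ to 3′ on the gene's own strand, ends 1 base before the start of transcription, and has the NRF1 letters of either strand in capitals.
SDHA, chr5:218154-218319, plus strand: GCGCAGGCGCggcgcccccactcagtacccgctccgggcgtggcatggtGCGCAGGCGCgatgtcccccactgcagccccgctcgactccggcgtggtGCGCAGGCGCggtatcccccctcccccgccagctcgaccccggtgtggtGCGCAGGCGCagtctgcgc
UQCRC1, chr3:48609647-48609736, minus strand: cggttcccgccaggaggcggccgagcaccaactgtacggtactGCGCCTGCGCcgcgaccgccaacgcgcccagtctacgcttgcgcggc
NDUFA9, chr12:4649004-4649113, plus strand: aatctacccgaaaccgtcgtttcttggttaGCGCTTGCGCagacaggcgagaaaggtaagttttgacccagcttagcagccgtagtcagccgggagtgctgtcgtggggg

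In SDHA the letters occur 4 times, 166, 117, 68 and 19 bases before the start, each 49 bases from the next. The letters alone thus stood before genes that moved in both directions.

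Many members share a promoter region with a gene read the other way. Of the 71 with a window, 25 (35.2%) had such a neighbour starting within 1000 bases, against 25.6% of all genes tested. In 19 pairs both genes were tested, and 5 pairs had both called. In 3 of the 5 the partners went the same way: NDUFA2 and IK (-0.48 and -0.47), NDUFA7 and RPS28 (-0.33 and -0.34), and NDUFAF2 and ERCC8 (0.68 and 0.26). In the other 2 they went opposite ways: COX4I1, called through its dim probe set, and EMC8 (-0.21 and 0.28), and NDUFA1 and RNF113A (-0.17 and 0.17). In 6 pairs the member alone was called, in 4 the neighbour alone, and in 4 neither. Over all genes tested 58.7% were called, and how often their own neighbouring pairs went the same way was not counted. A part of the shared region in these moves was not tested.

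The bases between the paired start sites are shown for the 3 pairs that moved the same way, because both genes of a pair start at an end of the stretch, 135 (NDUFAF2), 199 (NDUFA2) and 121 (NDUFA7) bases apart. Capitals mark the Sp1 letters on either strand, which the NDUFAF2 stretch lacks, and the NRF1, GABP/ETS and YY1 letters do not occur in the 3 stretches.
NDUFAF2, chr5:60945071-60945204, plus strand: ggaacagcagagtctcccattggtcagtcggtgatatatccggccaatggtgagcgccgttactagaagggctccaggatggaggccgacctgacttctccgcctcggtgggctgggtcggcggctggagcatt
NDUFA2, chr5:140647631-140647828, minus strand: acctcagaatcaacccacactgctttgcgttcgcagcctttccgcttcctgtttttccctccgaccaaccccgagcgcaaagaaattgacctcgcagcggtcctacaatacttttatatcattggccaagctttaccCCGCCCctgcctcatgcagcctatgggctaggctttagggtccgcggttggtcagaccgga
NDUFA7, chr19:8321376-8321495, minus strand: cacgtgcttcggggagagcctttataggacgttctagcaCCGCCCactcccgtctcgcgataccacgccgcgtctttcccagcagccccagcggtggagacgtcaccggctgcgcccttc

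Calls near the threshold changed when arrays were left out. Leaving out a replicate number removes an array from each group and leaves fewer degrees of freedom. Without replicate 2, 5 member genes were higher and 11 lower, beside 20.7% and 21.7% of all genes tested. Without replicate 3 these were 5 and 15, beside 22.5% and 24.1%. Without replicate 1 they were 9 and 27, beside 27.8% and 36.1%. With all arrays the shares of all genes were 27.7% and 31%. The 34 called genes were followed one by one through 13 settings: no block, other signal filters, scalings, probe-set choices, a variance trend, 16 added before log2, and each replicate number left out. In those settings that tested them, 13 genes kept their call: NDUFAF2, NDUFAF5, NDUFAF6 and UQCRC1 higher, and NDUFA2, NDUFA3, NDUFA5, NDUFA7, NDUFB10, UQCR10, UQCRB, ATP5F1D and ATP5IF1 lower. The methods' t-test was not followed gene by gene. The sources say that the experiment was done 3 times but not what was renewed each time, so the p-values measure the spread between these 6 arrays.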

How the data were processed

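Gene expression was measured on 6 Affymetrix U133 Plus arrays, 3 per group. The deposited values were log2 signals, 1 per probe set and array, running from 2.89 to 14.8. The software and normalisation behind them are not given in the sources used here. Control probe sets (62) were left out. Gene names came from the platform's annotation, with promoters and neighbours from RefSeq tables (GRCh38.p14). The array number limits precision.

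As in the study's methods, a mean signal below 100 in both groups removed a probe set. The test was limma's (version 3.58.1, R 4.3.3, lmFit and eBayes), two-sided, on 19101 probe sets and 10115 genes, adjusted by Benjamini-Hochberg over all of them. Replicate number entered as a block because the methods pair the arrays. The workflow was tested on simulated data. Lists were counted with pandas 2.3.3 and plots drawn with matplotlib 3.10.9 (Python 3.11.15). Genes named were, per complex and for the assembly factors, the 3 largest rises and falls past the threshold that held in all 3 same-numbered pairs, all of complex II and the c-ring, the complex IV isoforms, genes with opposed probe sets, and the 2 largest rises and falls of each companion list. Other genes were named after their values were seen. Members and lists were chosen with earlier results of these data known. Alternatives covered the block, the filter, scaling between arrays, 16 added to signals before log2, a variance trend, leaving out _x_at and _s_at probe sets, taking the brightest probe set of a gene, leaving out each replicate number, the methods' t-test, thresholds and updated symbols.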

Additional observations from a re-analysis of the deposited data

How the results depend on the processing

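The counts of called member genes (10 higher, 24 lower) and probe sets (13 higher, 32 lower) depended on the settings. Genes called higher were 6 without the signal filter, 3 without probe sets ending in _x_at or _s_at (52 genes left), 4 by the methods' t-test after Benjamini-Hochberg, 5 at an adjusted p under 0.01, and 5 to 9 with a replicate number left out. Genes called lower were 13, 14, 11, 12 and 11 to 27 in the same order, and 15 after each array was centred on its median. Probe sets called higher were 21 with a variance trend, 5 without _x_at and _s_at sets, 5 by the t-test and 8 to 15 with a replicate left out. Probe sets called lower were 51, 16, 12 and 18 to 44 in that order, and 20 at an adjusted p under 0.01. More members were lower than higher in each of these settings. The same held for all genes in the settings whose shares are given below. With the brightest probe set of each gene, 14 member genes were higher and 22 lower, beside 26.3% and 30.8% of all genes. By the unadjusted t-test at a p under 0.05, 9 member genes were higher and 26 lower. The shares of all genes tested moved as well, from 27.7% higher and 31% lower. They were 12.7% and 14.1% without the signal filter, and 24.5% and 33.4% without _x_at and _s_at sets. After centring they were 23.7% and 27.4%. With a replicate number left out they were 20.7% to 27.8% and 21.7% to 36.1%. Over all probe sets the shares were 27.8% and 30.1% with a variance trend and 24.2% and 32.3% without _x_at and _s_at sets. They were 19.3% to 27.4% and 19.2% to 33.7% with a replicate number left out. Shares of all genes and probe sets by the t-test and at an adjusted p under 0.01 are not given here.

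Among the genes the naming rule chose, signs turned in SDHC and ATP5MC3. They are 2 of 24 genes without a call whose sign turned in some setting. SDHC (-0.09) became 0.092 where the mean of all 6 arrays had to reach 100, 0.20 at a signal limit of 200 and 0.27 with the brightest probe set, and ATP5MC3 (-0.14) became 0.047 at a limit of 200 and 0.057 with the brightest. The averages over different probe sets account for both by construction. Among the 34 called genes, 0 changed sign.

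Without the replicate block, 10 genes were higher and 29 lower, beside 29.4% and 32.6% of all genes. Of the member probe sets 16 were then higher and 40 lower, beside 27.9% and 30.0% of all probe sets. The deviations of same-numbered arrays from their group means correlated at -0.24, 0.24 and 0.11, so the numbers were not shown to pair the arrays, and not every array correlated best with its own number. The signal sets the other limit: 11 member genes, among them 6 complex IV isoforms, were below 100 in both groups.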

Other observations

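Some subunits were read on probe sets that the annotation assigns to several genes, which the rule leaves out. The probe set of NDUFS5 and RPL10 rose from 12.53, 12.58 and 12.56 to 12.78, 12.76 and 12.82 (0.23, SE 0.055, adjusted p = 0.014 by limma), and which gene it reads is not known from the annotation. The probe sets naming NDUFS8, a core subunit, beside microRNA genes differed by -0.08 and -0.13. Those naming NDUFC2 and its readthrough transcript differed by -0.08 and -0.13, the one naming UQCRH and UQCRHL by -0.03, and the one naming ATP5MF and ARMC2-AS1 by 0.05. The probe set shared by NDUFS3 and PTPMT1 differed by 0.21 (adjusted p = 0.083), while that of NDUFS3 alone differed by -0.14. None of these but the first passed the test.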
